A study of Caenorhabditis elegans with 2 samples.

Results

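The genes described here are 9 members of the oxidative stress response that the transcription factor SKN-1 governs in Caenorhabditis elegans: skn-1, wdr-23, gcs-1, gst-4, sod-1, sod-2, sod-3, ctl-2 and prdx-2. They were chosen by name from the 19973 protein-coding genes of the WBcel235 annotation, and binding of the transcription factor CEBP-1 was read at each of them. Each gene was given a window from 5000 bp upstream of its annotated 5′ end to its 3′ end, and a peak belonged to the gene when its summit, the position of highest signal, lay in that window. Windows of neighbouring genes overlap, so 1 summit can be counted for several genes. CEBP-1 was mapped by chromatin immunoprecipitation with sequencing (ChIP-seq) in strain OP563, unc-119(tm4063) III; wgIs563, whose transgene adds GFP and FLAG to the C-terminal end of CEBP-1. The worms were young adults, of mixed sex, 63 hours after release from the starved L1 stage, and chromatin of whole animals was sonicated and precipitated through GFP. The series holds 1 group of 2 biological replicates, numbered 3 and 7, so no test between groups was possible. A profile of an untagged strain was not analysed here, and signal from whole animals cannot be divided among tissues.

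SKN-1 is a factor related to mammalian Nrf proteins that switches on detoxification genes when worms meet oxidants or electrophiles. WDR-23 holds it down by bringing it to a ubiquitin ligase built on CUL-4 and DDB-1, and p38 signalling through SEK-1 and PMK-1 promotes its entry into nuclei. Its best known targets make glutathione, attach glutathione to toxic compounds, or remove superoxide and peroxides. CEBP-1 is a bZIP factor of the C/EBP family, known in worms for its part in axon regrowth and in stress and immune responses.

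The authors' optimal list, made with a measure of how reproducibly replicates rank peaks, held 5982 peaks, of which 8 had a summit in the windows of the 9 genes. These 8 peaks belonged to skn-1, wdr-23 and prdx-2. The sequences around the summits of 4 of them are printed below, 50 bp on each side of the summit, so that the DNA beneath the signal values can be read. They are in build ce11 and come from the RefSeq genome sequence. They are in lower case throughout because none of them held a match to the sequences searched: the C/EBP core TTACGCAA, TTACGTAA, TTGCGCAA or TTGCGTAA, the related TTGCGAAA, the AP-1 sites TGACTCA and TGAGTCA, and a set of SKN-1 sites. The SKN-1 set was AATATCAT, AATGTCAT, ATTATCAT, ATTGTCAT, TATATCAT, TATGTCAT, TTTATCAT and TTTGTCAT. Each was searched on both strands.
skn-1 peak 3135 bp downstream, chrIV:5657199-5657299, plus strand: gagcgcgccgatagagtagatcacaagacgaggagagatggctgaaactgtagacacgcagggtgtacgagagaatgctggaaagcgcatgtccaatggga
skn-1 peak 714 bp downstream, chrIV:5659620-5659720, plus strand: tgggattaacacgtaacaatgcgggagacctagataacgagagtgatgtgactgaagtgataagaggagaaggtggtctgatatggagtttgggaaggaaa
skn-1 peak 86 bp upstream, chrIV:5660420-5660520, plus strand: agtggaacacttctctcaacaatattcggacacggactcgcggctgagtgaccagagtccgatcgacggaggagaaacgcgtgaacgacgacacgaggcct
prdx-2 peak 4761 bp upstream, chrII:5373384-5373484, plus strand: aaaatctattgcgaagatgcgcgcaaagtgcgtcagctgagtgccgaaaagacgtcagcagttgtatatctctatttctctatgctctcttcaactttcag

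The sequence TTGCGAAA was found at 1 of the 8 peaks, which is not among those printed, beside 14.9% of all optimal summit windows. No member peak held a C/EBP core, an AP-1 site or a SKN-1 site within 50 bp of its summit, where 1.27%, 1.81% and 3.98% of all optimal summit windows did. Within 100 bp, SKN-1 sites were found at 4 of 8 peaks, all 3 of wdr-23 and the skn-1 peak 3135 bp downstream, beside 8.46% of all optimal windows of that width. A match is a run of letters and not a measured site.

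For the SKN-1 target genes gst-4 and gcs-1, which had no optimal peak, promoter stretches that hold SKN-1 sites are printed from the RefSeq genome in ce11, on the strand of each gene. The capitals mark matches to the SKN-1 set. The gst-4 stretch runs from 160 to 40 bp upstream of its 5′ end and the gcs-1 stretch from 160 to 80 bp upstream.
gst-4 promoter, chrIV:10142065-10142185, plus strand: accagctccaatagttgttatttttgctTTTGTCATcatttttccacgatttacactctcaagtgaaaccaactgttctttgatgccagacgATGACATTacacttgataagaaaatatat
gcs-1 promoter, chrII:9038381-9038461, minus strand: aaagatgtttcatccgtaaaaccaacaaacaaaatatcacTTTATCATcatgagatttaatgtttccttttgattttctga

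With a promoter taken as 1000 bp upstream to 200 bp downstream of the 5′ end, SKN-1 sites were present in the promoters of 6 of the 9 genes: 3 at wdr-23, 2 each at gcs-1 and gst-4, and 1 each at skn-1, sod-1 and sod-2. The promoters of sod-3, ctl-2 and prdx-2 had no match. SKN-1 sites are short and frequent, and 48.9% of all protein-coding promoters held at least 1. None of the 9 promoters held a C/EBP core, beside 5.60% of all promoters, nor TTGCGAAA, beside 10.1%, nor an AP-1 site, beside 11.7%.

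Among the 9 genes, the optimal CEBP-1 peaks stood mostly at the regulators of the response. Both regulators had optimal summits, skn-1 with 4 and wdr-23 with 3, and of the 7 enzyme genes only prdx-2 did, with 1. In all, 3 of 9 windows held an optimal summit, beside 30.5% of all protein-coding genes, so the share of the set as a whole was close to that of all genes. At least 3 optimal summits were found at 2 of 9 genes, beside 5.62% of all genes. The cut-off of 3 was not among the planned settings and equals the count at wdr-23, so this share is only a description. A promoter summit was found at 2 of 9 genes, skn-1 and wdr-23, beside 14.9% of all genes.

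Window length differed between the regulators and the enzymes and moved with these counts. The windows of skn-1 and wdr-23 were 14346 and 11446 bp long, whereas those of the 7 enzyme genes were 5875 to 7740 bp, and the median over all genes was 7027 bp. Among windows under 8000 bp, 1 of 7 members held an optimal summit, beside 25.7% of 13541 genes. Among windows of 10000 bp or more, 2 of 2 members held at least 3 optimal summits, beside 12.1% of 3233 genes. That is the same unplanned cut-off, equal to the count at wdr-23. The part of window length in the counts was not tested further.

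The strength of each peak was followed in each replicate. The signal value is the authors' own, computed by their peak caller against a control. In each replicate list the strongest summit within 100 bp of the optimal summit was taken. Its signal was divided by the median over the optimal peaks that had such a summit in that replicate. This median was 204 in replicate 3 and 112 in replicate 7. The result is called relative signal, and 1 is a typical optimal peak. Over the 8 peaks it ranged between 0.525 and 4.73, with a median of 1.42, beside a median of 1.01 over the 5251 optimal peaks found in both replicates. Of the 8 peaks, 5 lay above 1. Peaks of 1 gene share that gene and are not independent of each other.

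**Figure D1:**
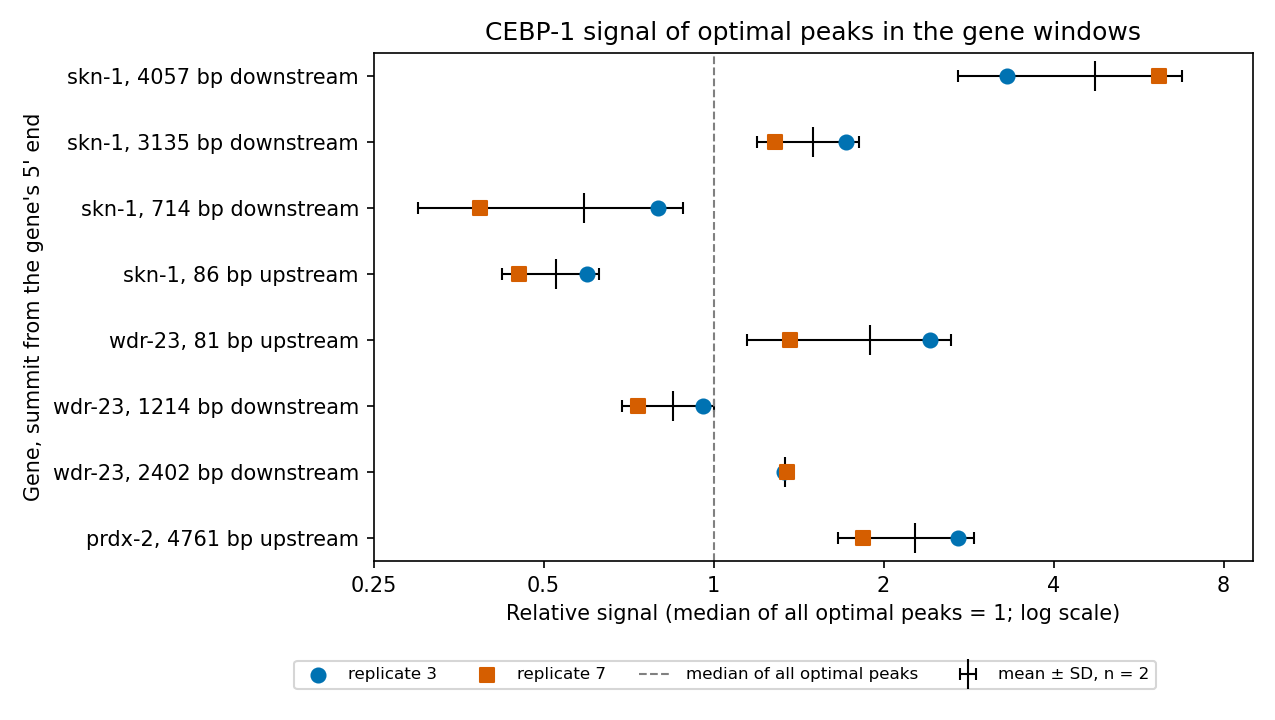
Relative signal (horizontal, log scale, no unit) of the 8 optimal peaks in the windows of skn-1, wdr-23 and prdx-2, with a circle for replicate 3, a square for replicate 7, and the mean ± SD of the 2 replicates. The dashed line at 1 is the median of the optimal peaks matched in each replicate. The skn-1 peak 4057 bp downstream lies farthest to the right in both replicates. The 2 skn-1 peaks nearest to the 5′ end lie left of the line in both.

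The gene skn-1 (WBGene00004804, chrIV:5651039-5660384, minus strand) encodes SKN-1 itself. Its strongest peak had its summit in an intron, 4057 bp downstream of the gene's 5′ end and 722 bp upstream of the annotated 5′ end of the shorter transcript T19E7.2c.1, which encodes the isoform SKN-1C. The signal was 673 in replicate 3 and 688 in replicate 7, at ranks 615 and 217 of each replicate's 30000 listed peaks. In relative terms that was 3.30 in replicate 3 and 6.16 in replicate 7, a mean of 4.73 ± 2.02 (SD, n = 2). Both replicates placed the peak far above the typical optimal peak, and they differed from each other in how far. Its mean exceeded that of 93.9% of the optimal peaks found in both replicates. In the list from both replicates pooled, 96.5% of all genes had a lower strongest signal in their window. Genes without a listed summit counted as lower there, and 43.8% of all windows held a listed summit. The nearest gene 5′ end was that of clec-178, a lectin-domain gene nested within skn-1, 2378 bp away. The annotated transcript T19E7.2c.1 begins with its coding sequence, so its 5′ end is that of the annotation and not a measured start of transcription.

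A further peak of skn-1 (chrIV:5656753-5657534) lay in the same intron of T19E7.2a.1, with its summit 3135 bp downstream of the gene's 5′ end and 1644 bp upstream of T19E7.2c.1. Its signal was 349 in replicate 3 and 143 in replicate 7, and its relative signal 1.72 and 1.28, a mean of 1.50 ± 0.307 (SD, n = 2). Both values lay above the typical optimal peak, and the mean exceeded that of 68.3% of the optimal peaks found in both replicates. The remaining peaks of skn-1 were weak and stood near the 5′ end of the longest transcript, T19E7.2a.1. The one 714 bp downstream (chrIV:5659506-5659756) had a relative signal of 0.796 in replicate 3 and 0.385 in replicate 7, a mean of 0.591 ± 0.291 (SD, n = 2). The one 86 bp upstream (chrIV:5660221-5660665), which is the promoter peak, had 0.598 in replicate 3 and 0.452 in replicate 7, a mean of 0.525 ± 0.103 (SD, n = 2). Both were below 1 in each replicate, and they ranked 10296 and 8375 in the list of replicate 7, outside its strongest 5982. The internal pair next to T19E7.2c.1 was therefore higher in signal than the pair at the outer 5′ end in both replicates, without overlap.

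**Figure D2:**
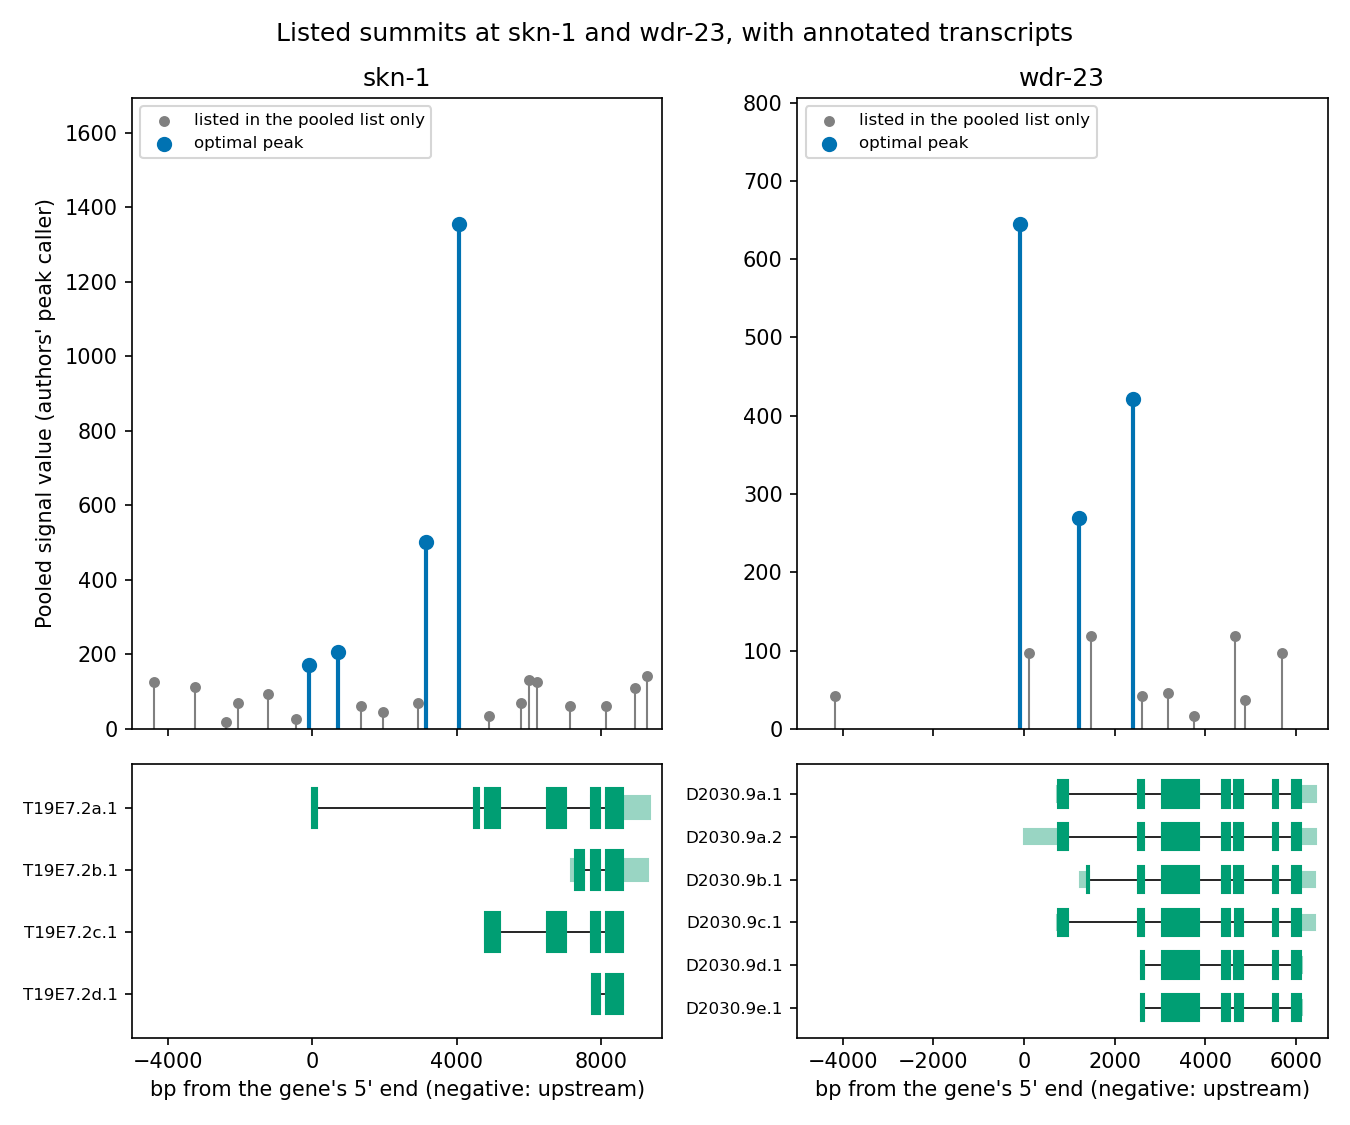
Pooled signal value (vertical, the authors' peak caller, different scales) of every listed summit in the windows of skn-1 (left) and wdr-23 (right) by distance in bp from the gene's 5′ end, with optimal peaks in blue and other listed peaks of the pooled list in grey. The transcripts below are drawn 5′ to 3′ from left to right, with coding exon parts as tall dark boxes and non-coding parts as low pale boxes: the tallest skn-1 summit stands 722 bp before T19E7.2c.1 begins, and the tallest wdr-23 summit 81 bp before D2030.9a.2 begins.

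The gene wdr-23 (WBGene00008419, chrI:7595776-7602221, plus strand) encodes the repressor of SKN-1. Its 3 optimal peaks each stood within 200 bp upstream of the annotated 5′ end of a different group of its transcripts. The transcripts D2030.9a.1 and D2030.9c.1, which begin 731 and 729 bp downstream of the gene's 5′ end, had no optimal summit that close upstream. The first peak (chrI:7595452-7595956) had its summit 81 bp upstream of the gene and of D2030.9a.2. Its signal was 493 in replicate 3 and 152 in replicate 7, and its relative signal 2.42 and 1.36, a mean of 1.89 ± 0.747 (SD, n = 2). Both replicates were above 1. The mean exceeded that of 76.2% of the optimal peaks found in both replicates, and the strongest pooled promoter signal was lower at 95.8% of all genes. Promoters without a listed summit counted as lower, and 28.8% of all promoters held a listed summit.

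The second wdr-23 peak (chrI:7596857-7597104) had its summit in an intron, 1214 bp downstream of the gene's 5′ end and 24 bp upstream of D2030.9b.1. Its relative signal was 0.957 in replicate 3 and 0.735 in replicate 7, a mean of 0.846 ± 0.157 (SD, n = 2), just below a typical optimal peak. The third (chrI:7598047-7598323) lay 2402 bp downstream and 175 bp upstream of D2030.9d.1 and D2030.9e.1, whose annotation also begins with coding sequence. Its relative signal was 1.33 in replicate 3 and 1.35 in replicate 7, a mean of 1.34 ± 0.00902 (SD, n = 2). It differed least between the replicates among the 8 peaks. With summits matched within 50 or 200 bp its mean was 1.26 or 1.32, shifts larger than that SD. Counting the promoter peak of skn-1, 4 of 8 member summits stood within 200 bp upstream of an annotated protein-coding transcript 5′ end, beside 20.4% of all optimal summits. All of these but the skn-1 summit belonged to wdr-23, which has 5 annotated transcript 5′ ends. The distance of 200 bp was not among the planned settings and lies just above the distances of these summits. The share therefore only describes them.

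Agreement between the replicates was measured as a summit within 100 bp among the strongest 5982 peaks of both. It held for 6 of 8 member peaks, beside 60.2% of all optimal peaks. The exceptions were the 2 weak skn-1 peaks. Replicate 3 alone had all 8 among its strongest 5982, beside 85.3% of all optimal peaks, and replicate 7 had 6, beside 72.1%. All 8 peaks also had a counterpart in the optimal list of the older build ce10, which held 6131 peaks. Matching was by chromosome, interval width, summit position within the interval and a signal within 0.01%. The ce10 list comes from the same 2 replicates, so it adds no measure of agreement between them.

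Among the enzymes, prdx-2 (WBGene00006434, chrII:5378195-5379631, plus strand), which encodes a peroxiredoxin that reduces hydrogen peroxide, was the only one with an optimal peak. That peak (chrII:5373267-5373607) had its summit 4761 bp upstream of prdx-2. Its signal was 552 in replicate 3 and 206 in replicate 7, and its relative signal 2.71 and 1.84, a mean of 2.28 ± 0.616 (SD, n = 2). It was strong in both replicates, but it stood in a non-coding exon part of another gene, agt-2, 393 bp downstream of that gene's 5′ end, and close to the far edge of the prdx-2 window. Closer to prdx-2 itself, a listed summit 479 bp downstream had a pooled signal of 130 and rank 6701, below the lowest optimal signal of 148. The replicate lists held a summit there at rank 7330 in replicate 3, 485 bp downstream, and at rank 8138 in replicate 7, 419 bp downstream. In the prdx-2 promoter the pooled list held 1 summit, with a signal of 23.5.

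The other enzyme genes had no optimal summit, and their highest-ranked listed summits were taken from the longer lists. Those lists of 30000 peaks hold background by design, so a listed summit there is no sign of binding on its own. A summit of the pooled list stood in the promoters of 5 of 9 members, beside 28.8% of all genes, and only those of skn-1 and wdr-23 were optimal. The gene sod-1 (WBGene00004930, chrII:6972706-6973887, minus strand), for the cytosolic copper and zinc superoxide dismutase, came nearest in the pooled list. Its pooled summit in an intron, 226 bp downstream of the 5′ end, had a signal of 118 and rank 7299. At that place replicate 3 had rank 9549 and replicate 7 had rank 5944, so only replicate 7 put it among the strongest 5982.

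The gene gcs-1 (WBGene00001527, chrII:9035562-9038301, minus strand), for the catalytic subunit of glutamate-cysteine ligase, the first step of glutathione synthesis, had its highest pooled summit 1294 bp upstream, with a signal of 65.8 and rank 12572. In its promoter, where the SKN-1 site printed above lies, the highest pooled signal was 41.7, with the summit 530 bp upstream and rank 18387. Both lay far below the lowest optimal signal. The mitochondrial superoxide dismutase gene sod-2 (WBGene00004931, chrI:8434550-8435807, plus strand) had its highest pooled summit 4750 bp upstream, at a signal of 50.4 and rank 15898, inside the neighbouring gene F02E9.10. The peroxisomal catalase gene ctl-2 (WBGene00000831, chrII:14299556-14302027, minus strand) had its highest 877 bp downstream of the 5′ end, in a coding exon, at a signal of 59.6 and rank 13768.

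No summit was listed in any of the 3 lists for gst-4 (WBGene00001752, chrIV:10142225-10143099, plus strand), a glutathione S-transferase gene widely used as a reporter of SKN-1 activity, or for sod-3 (WBGene00004932, chrX:17092753-17094306, plus strand), the second mitochondrial superoxide dismutase gene. That was 2 of 9 members, beside 44.4% of all genes, and among windows under 8000 bp it was 2 of 7, beside 51.2%. Windows without a listed summit were thus common among all genes. Copies of similar sequence stand beside 2 of these genes, ctl-1 and ctl-3 beside ctl-2 and other gst genes beside gst-4, and how reads that map to several places were treated is not given in the sources used here.

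**Figure D3:**
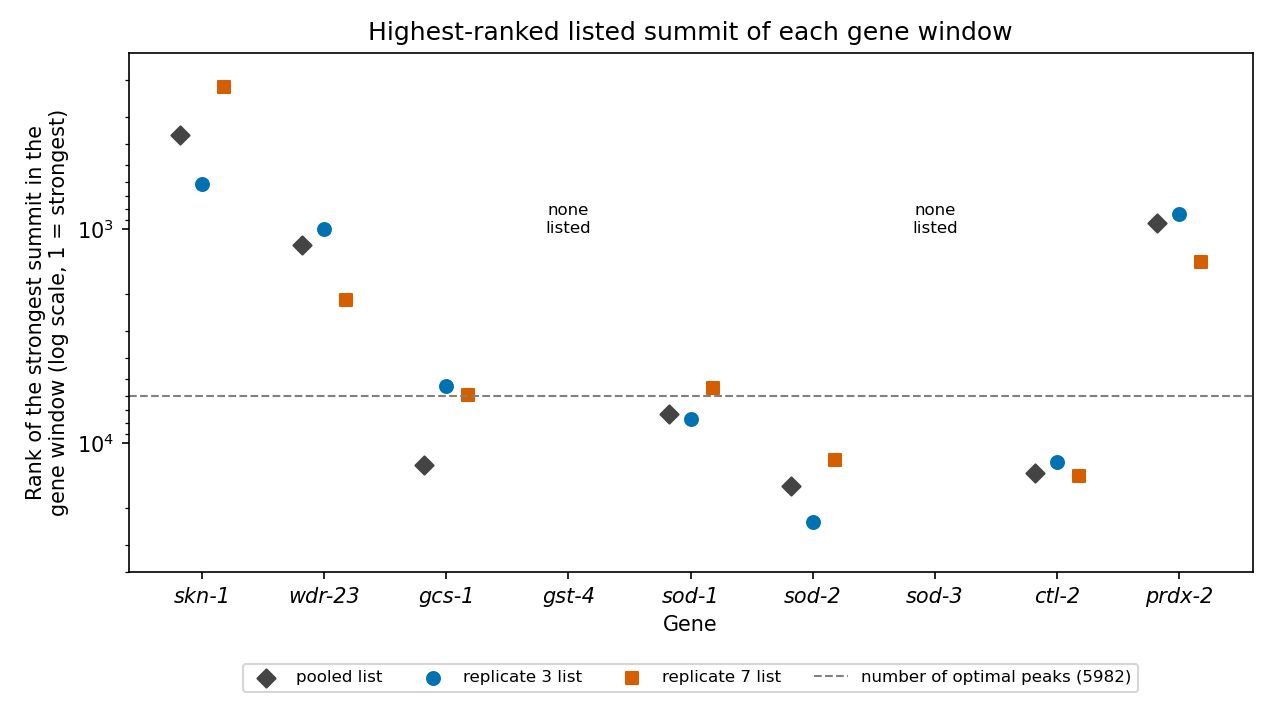
Rank (vertical, log scale, 1 = strongest, drawn at the top) of the highest-ranked listed summit in the window of each of the 9 genes, with a diamond for the pooled list, a circle for replicate 3 and a square for replicate 7. The dashed line is rank 5982, the number of optimal peaks: skn-1, wdr-23 and prdx-2 lie above it in all 3 lists, gcs-1 lies above it only in the replicate lists, sod-1 only in replicate 7, and gst-4 and sod-3 have no summit.

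In order of the strongest pooled signal in the window, the members ran skn-1 (1354), prdx-2 (764), wdr-23 (645), sod-1 (118), gcs-1 (65.8), ctl-2 (59.6) and sod-2 (50.4), with gst-4 and sod-3 unlisted. The same order by share of all genes with a lower value was 96.5%, 91.6%, 89.8%, 66.8%, 61.2%, 60.3% and 59.2%. The pooled signal of a gene is 1 value with no error, and neighbours in this order need not differ. The ranks of sod-2 and ctl-2 crossed between replicates: sod-2 was at 23199 in replicate 3 and 11962 in replicate 7, and ctl-2 at 12293 and 14148. Those of gcs-1 and sod-1 crossed too, with gcs-1 at 5412 and 5923 and sod-1 at 7718 and 5523. These ranks do not all belong to the same place in both replicates. The sod-1 summit lay 340 bp upstream in replicate 3, but 2330 bp upstream and inside another gene in replicate 7. The ctl-2 summit lay 1709 bp downstream in replicate 3 and 899 bp downstream in replicate 7. Both gcs-1 summits had the nearest 5′ end at another gene. At the top, skn-1 ranked above prdx-2, and prdx-2 above wdr-23, in both replicates.

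The edge of the window decided several assignments. Just beyond the upstream edge of skn-1, 5163 bp from its 5′ end, lay an optimal peak of signal 2246 and rank 145, with a relative signal of 7.17 ± 0.123 (SD, n = 2), whose nearest gene 5′ end was that of the autophagy gene bec-1. It was stronger than any peak within the skn-1 window. A neighbouring summit 5362 bp upstream had 1.92 ± 0.478 (SD, n = 2). Within 200 bp past the 3′ ends stood summits at wdr-23 (1.37 ± 0.178, SD, n = 2, in a coding exon of aex-1), prdx-2 (1.25 ± 0.111, SD, n = 2, near pkc-3) and ctl-2 (0.596 ± 0.131, SD, n = 2, in a coding exon of Y54G11A.7). Of the 8 peaks inside the windows, 6 had the member as the gene with the nearest 5′ end.

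Other genes of the same pathways were read in 5 lists with 60 genes. Of these, 27 had an optimal window summit and 14 a promoter summit, beside the 30.5% and 14.9% of all genes given above. In the strongest window summit of 14 of the 27, that gene also had the nearest 5′ end. The regulators of SKN-1 had 14 of 22 with a window summit and 4 of 22 with a promoter summit. Their median window was 9122 bp, against 6268 bp in the 4 enzyme lists, where 13 of 38 had a window summit and 10 of 38 a promoter summit. The regulators had the higher share of windows and the lower share of promoters with a summit, and the part of window length was not tested.

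**Figure D4:**
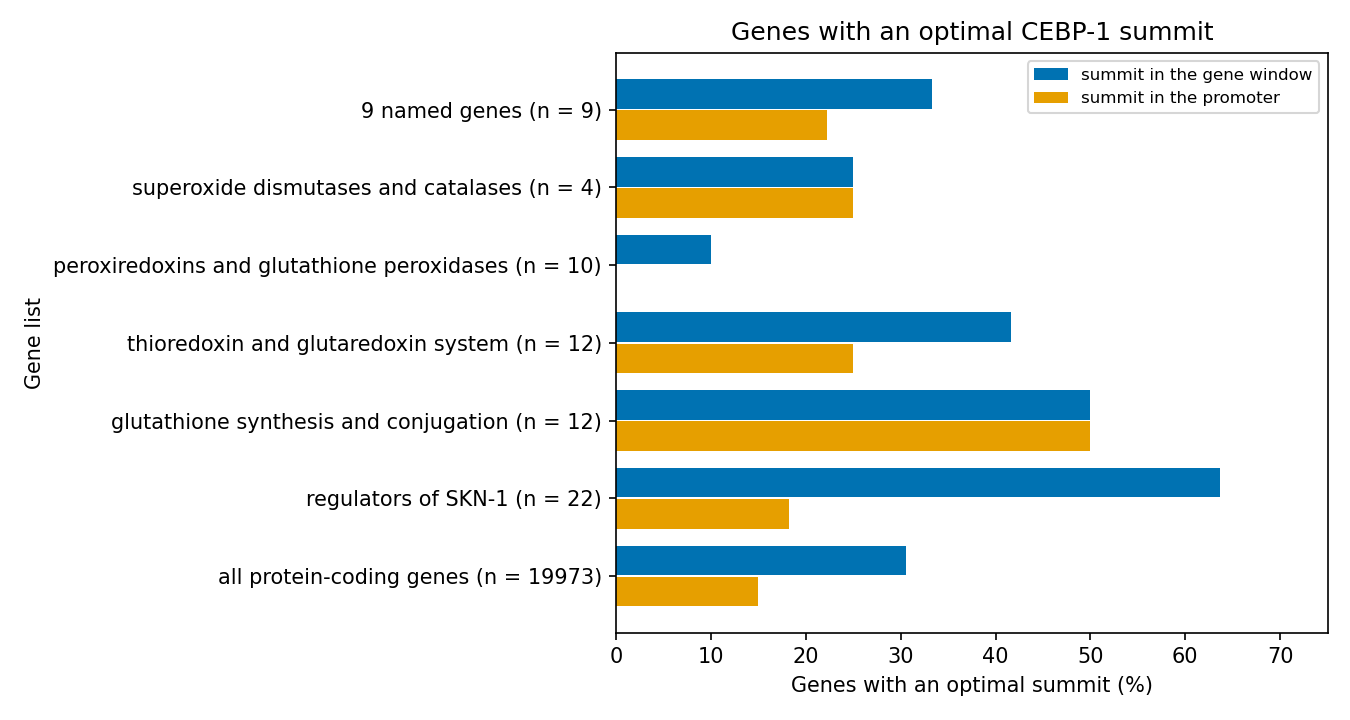
Share of genes (horizontal, percent) with an optimal CEBP-1 summit in the gene window (blue) or in the promoter (orange), for the 9 named genes, the 5 lists of other pathway genes and all protein-coding genes, with the number of genes in each. For regulators of SKN-1 the window share is high and the promoter share close to that of all genes, and for glutathione synthesis and conjugation both shares are equal, at 6 of 12.

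Within the regulator list the highest mean relative signal was that of xrep-4, which encodes an F-box protein that acts with WDR-23 on the stress response, 280 bp downstream of its 5′ end. Its relative signal was 1.88 in replicate 3 and 5.48 in replicate 7, a mean of 3.68 ± 2.55 (SD, n = 2), so the replicates differed widely. In replicate 3 it lay below akt-2, at 3.67, gsk-3, at 3.48, and sek-1, at 2.10. Its pooled signal of 986 was also below the 1044 of akt-2 and the 1025 of gsk-3. The means of the kinase genes were as follows: gsk-3, which restrains SKN-1, at 3.20 ± 0.388 (SD, n = 2), but with the nearest 5′ end at Y18D10A.4; akt-2 of insulin signalling at 3.18 ± 0.682 (SD, n = 2), 1893 bp upstream; and the p38 kinase kinase sek-1 at 2.36 ± 0.370 (SD, n = 2), 1302 bp upstream. The kinase pmk-1 and cul-4, the partner of wdr-23, had no optimal summit in their windows.

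Among enzymes of glutathione synthesis and conjugation, 6 of 12 had a promoter summit. By mean relative signal of the strongest summit in the window, gst-38, a glutathione S-transferase gene, was highest, 12 bp upstream at 4.23 ± 0.735 (SD, n = 2). The strongest summit in the window of gst-1 had 1.81 ± 0.235 (SD, n = 2), but it lay 4361 bp upstream, outside the promoter, and was nearest to cls-2. That of gst-5 lay 108 bp upstream and had 1.38 ± 0.0300 (SD, n = 2). The glutathione synthetase gene gss-1, which acts directly after gcs-1, had 1.00 ± 0.197 (SD, n = 2), nearest to chch-3. Of the 10 gst genes in the list, 4 had an optimal window summit, beside 30.5% of all genes, and 6 had none, as was the case for gst-4.

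In the thioredoxin and glutaredoxin system 5 of 12 genes had a window summit and 3 of 12 a promoter summit. All 3 promoter summits belonged to glutaredoxins, small enzymes that use glutathione to reduce disulfide bonds. The values were glrx-10 at 4.83 ± 0.173, glrx-5 at 4.78 ± 1.00 and glrx-3 at 2.83 ± 0.197 (relative signal, SD, n = 2 each). The thioredoxin gene trx-1 had 1.26 ± 0.649 (SD, n = 2), nearest to B0228.1. Of the peroxiredoxins and glutathione peroxidases, 1 of 10 had a window summit, gpx-4 at 1.66 ± 1.38 (SD, n = 2), 9 bp from the 5′ end of Y94H6A.3, and none had a promoter summit. Of the other superoxide dismutases and catalases, 1 of 4 had a window summit and a promoter summit, the extracellular sod-4. Its window held 3 optimal summits, 2 of them in the promoter. The strongest had 3.00 ± 0.353 (SD, n = 2) and lay 1978 bp upstream, outside the promoter. The paralogs sod-5, ctl-1 and ctl-3 had none.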

How the data were processed

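Per the README texts that the submitters deposited, the authors derived each peak list from alignments of 1 replicate, or of both pooled, and 1 control file; pooled and replicate lists of 30000 peaks hold peaks and background, and the optimal list is the thresholded result. Each peak carries a signal value and a −log10 q-value, both as deposited in the authors' narrowPeak columns; the −log10 q-value is capped at 1 highest value per list (3.88 in the optimal list, where 63.8% of peaks reached it) and was not used for ranking. A comparison of the lists showed the 5982 optimal peaks to be those at the top of the pooled list by signal. The peak caller, its settings and the reproducibility threshold are not given in the sources used here. The lists hold no counts, so depth and counting error are unknown.

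Summits in the ce11 lists were set against Ensembl release 115 genes of WBcel235, with 1-based coordinates, in Python 3.11.15 (pandas 2.3.3, numpy 2.4.6, pysam 0.24.0, matplotlib 3.10.9). The assignment was tested on simulated data. Of the ce10 lists only the optimal one was used, to see whether each peak was also called in that build from the same replicates. All 60 pathway symbols were found. Named were the 9 members, up to 4 genes per pathway list with the strongest relative signal, the gene nearest to each member peak and each member's highest-ranked summit; pmk-1, cul-4, sod-5, ctl-1, ctl-3, the genes near summits just outside the windows and the second gcs-1 summit were named after their values were seen. The members and lists were chosen with earlier results of these data known. The cut-offs of at least 3 summits and of 200 bp upstream of a transcript 5′ end were not among the planned settings. The sequences of 4 member peaks are not reported here. Alternatives were stronger peaks, single replicates, peaks high in both replicates, interval overlap, other windows and promoters, nearest genes, other match distances and wider sequence windows.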

Additional observations from a re-analysis of the deposited data

How the results depend on the processing

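Both skn-1 and wdr-23 had a window summit under each alternative tried for that count, and 7 of the recomputed counts and medians moved by more than 1.5 times, while 32, among them 12 peaks in place of 8 and 2 members in place of 3, did not. With the strongest 50% of optimal peaks, the member peaks numbered 5 in place of 8 and the promoter summits 1 in place of 2. Any overlap of the peak interval gave 13 peaks and added ctl-2, because intervals of neighbouring peaks reach into the windows. Without replicate 3, that is with the strongest peaks of replicate 7 alone, 5 members had a window summit in place of 3 (gcs-1 and sod-1 were added) and 1 had a promoter summit. Over both single replicates the ranges were 4 to 5 members with a window summit, 9 to 12 peaks, 1 to 2 promoter members and a median relative signal of 1.31 to 1.53. Peaks high in both replicates left 1 promoter member, wdr-23. A search reaching 100 bp to either side of each summit raised the number of peaks with a sequence match to 5 in place of 1. A shorter upstream reach or the nearest gene alone left 2 members, without prdx-2, and a reach of 10000 bp gave 4, with sod-2. The 2 sequences added to the search and the nearest transcript 5′ end were chosen after seeing the data. The latter gave 7 peaks nearest to a member in place of 6. Of the added sequences, 1 was found within 50 bp of a summit, at 1 of 8 peaks, beside 0.819% of all optimal windows. That peak also held TTGCGAAA, so the main count of peaks with a match stayed at 1. No paired analysis was possible because the series holds 1 group. With 2 replicates the SD rests on 1 difference, and unknown depth means that an unlisted gene was not detected here rather than shown to lack CEBP-1.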

Other observations

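At gcs-1 both replicate lists held a summit that the pooled list did not. It lay 3704 bp upstream in replicate 3, at signal 112 and rank 5412, and 3758 bp upstream in replicate 7, at signal 65.8 and rank 5923, inside a non-coding exon part of T24B8.7. Of 3643 summits among the strongest 5982 of both replicates, 80 (2.20%) had no pooled summit within 100 bp, and 42 had none within 1000 bp. The gcs-1 summit was the only one of them in the member windows. The reason was not tested.

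At skn-1 the lists held 21 summits in the pooled, 26 in the replicate 3 and 22 in the replicate 7 list, most of them weak, and at wdr-23 12, 13 and 11. The strongest skn-1 summit outside the optimal list lay 9265 bp downstream of the 5′ end, near the 3′ end, at signal 143 and rank 6169.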
